A study of Mus musculus with 6 samples.

Results

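The genes described here are the immunoglobulin heavy locus genes *Ighm*, *Ighj2* and *Ighj3* and the early B-lineage genes *Cd79a*, *Cd79b*, *Vpreb1*, *Igll1*, *Pax5* and *Ebf1*. These 9 of the 41128 genes in the table were chosen by symbol, after *Ighm* and *Ighj* genes had been seen to be lower in *Hoxa9*/*IRX3* than in *Hoxa9*/MTV leukemias, so their differences between the cohorts are a description and carry no p-value. RNA came from bone marrow of 6 C57BL/6 mice with acute myeloid leukemia, 1 library per mouse. Both cohorts carried retroviral *Hoxa9* in CD45.1+ donor KIT+ bone marrow cells, transplanted into irradiated CD45.2+ recipients with support marrow. In the paper CD45.2+ mice were C57BL/6, and CD45.1+ mice, the source of the sorted cells, were the congenic strain B6.SJL-*Ptprc*a *Pepc*b/BoyJ. The 3 *Hoxa9*/MTV mice (1.1, 1.2 and 1.4) also received the empty vector MTV, and the 3 *Hoxa9*/*IRX3* mice (3.2, 3.3 and 3.5) received a human *IRX3* cDNA in that vector. Viable donor-derived cells that were KIT+ and Gr1+ were sorted, so each library is a bulk sample of a myeloid gate, and a lower value can come from fewer cells of a type or from less RNA per cell, which cannot be told apart. Donors and recipients were young adult females at transplantation, and the number of transduced clones is not given in the sources used here. The mice were sampled when sick, and the paper reports a later onset of leukemia in *Hoxa9*/*IRX3* than in *Hoxa9*/MTV recipients. Age and time since transplantation at sampling may thus differ between the cohorts and cannot be told apart from the vector.

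Values are RPKM, read numbers scaled to the length of the gene, here its whole span, and to the mapped reads of the library. The number of reads that scaled each library, recovered from the steps between low RPKM values, was between 7979246 and 9803621. Read numbers below are recovered with it, and over all genes they summed to between 104.0% and 105.4% of it. Mouse *Irx3* had 0 reads in all 3 *Hoxa9*/MTV mice and 474, 15 and 4 reads in mice 3.2, 3.3 and 3.5. The introduced *IRX3* is a human sequence and was not analysed here. Whether reads of it were counted on mouse *Irx3* was not tested. *Hoxa9* was at 340, 363 and 174 RPKM in mice 1.1, 1.2 and 1.4 and at 242, 154 and 221 RPKM in mice 3.2, 3.3 and 3.5, with overlapping cohorts.

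A B cell builds its heavy chain gene by joining a variable, a diversity and a joining segment, and the joined exon is spliced to the constant region of *Ighm*, which encodes the mu chain. In pre-B cells the mu chain pairs with the surrogate light chain, made of the products of *Vpreb1* and *Igll1*, and signals through the CD79A and CD79B chains. EBF1 and PAX5 are the transcription factors that set and hold B-cell identity. Unrearranged *Ighm* can also be transcribed from the heavy locus before joining, and low heavy locus transcription is known from cells outside the B lineage.

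The label of B lineage was checked against its defining markers first. *Pax5* had 0 reads in all 6 libraries, *Ebf1* had 4 reads in all and *Ms4a1*, which encodes CD20, had 0. The recombinase genes *Rag1* and *Rag2* had 4 reads each over the 6 libraries, the adaptor gene *Blnk* had 5 and the interleukin 7 receptor gene *Il7r* had 35. Myeloid genes stood far above these. *Mpo* (myeloperoxidase) was at 482 to 752 RPKM in *Hoxa9*/MTV and 807 to 1130 RPKM in *Hoxa9*/*IRX3* leukemias. *Kit*, part of the gate, was at 1.63 to 3.12 RPKM, or 1307 to 2259 reads per library. Other B-lineage markers were detected. *Cd79b* had 618 reads in *Hoxa9*/MTV and 78 in *Hoxa9*/*IRX3* leukemias, and *Igll1* had 6 and 1346. *Vpreb1* had 7 and 67 reads and *Cd79a* had 12 and 17. Because the markers were split, the 9 genes are described by name and not as a B-cell population.

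The joining segments are shown first, because their length sets how their values can be read. They lie on the minus strand of chromosome 12 (GRCm38, GENCODE M21), with *Ighj1* at chr12:113429781-113429833, *Ighj2* at chr12:113429468-113429515, *Ighj3* at chr12:113429085-113429132 and *Ighj4* at chr12:113428514-113428567. In the sequences below, 5′ to 3′ in gene direction, the capitals mark TGGGG, the shared stretch that encodes the tryptophan and the start of the first glycine after it.
*Ighj1*: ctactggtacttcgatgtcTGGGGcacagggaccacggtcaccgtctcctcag
*Ighj2*: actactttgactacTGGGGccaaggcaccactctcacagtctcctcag
*Ighj3*: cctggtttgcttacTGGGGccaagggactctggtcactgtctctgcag
*Ighj4*: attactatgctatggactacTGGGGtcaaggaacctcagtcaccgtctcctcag
The segments are 48 to 54 bases long, which is shorter than the 75 bases of a read. The reads were aligned end to end without splicing, so a read counted on a segment must also match the genomic bases beside it, and a read from an exon already joined to a diversity segment or spliced to *Ighm* would have to match that genomic flank to be placed here.

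*Ighj2* has a further annotated transcript of 54 bases at chr12:113429514-113429567, directly upstream of the segment. It is shown because the deposited values match its length, with the nonamer of the recombination signal (GGTTTTTGT) in capitals.
*Ighj2* upstream transcript: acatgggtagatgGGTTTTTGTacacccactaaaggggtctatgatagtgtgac
The *Ighj2* RPKM of mice 1.1, 1.2 and 1.4 correspond to 10, 2 and 2 reads on 54 bases and to 8.89, 1.78 and 1.78 reads on the 48 bases of the segment. Of the lengths up to the annotated span of 100 bases, 3 gave whole reads within 0.02, and 54 was the one that is an annotated transcript length. The values thus match the length of the unrearranged upstream stretch, and which of the transcripts the authors counted was not tested.

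*Ighm* (chr12:113418558-113422730, minus strand, the constant region of the mu chain) was at 55.6, 33.2 and 30.9 RPKM in mice 1.1, 1.2 and 1.4. It was at 4.39, 1.59 and 4.67 RPKM in mice 3.2, 3.3 and 3.5. The *Hoxa9*/MTV mean was 39.9 ± 13.7 RPKM and the *Hoxa9*/*IRX3* mean 3.55 ± 1.70 RPKM (SD, n = 3 each). The lowest *Hoxa9*/MTV mouse stood well above the highest *Hoxa9*/*IRX3* mouse, and *Ighm* stayed detected in all 6 libraries. The reads behind these values were 1860, 1044 and 1130 in *Hoxa9*/MTV and 147, 59 and 141 in *Hoxa9*/*IRX3* leukemias, whole on a gene length of 3781 bases. The summed reads per library read were 11.5-fold lower in *Hoxa9*/*IRX3* (95% exact interval 10.3 to 12.9), where this and the other intervals on reads cover counting error only. Leaving out single mice gave 8.79-fold to 13.6-fold. The log2 difference was -3.38 (SE 0.40) on log2(RPKM + 0.5).

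*Ighj2* was at 20.9, 4.46 and 3.83 RPKM in mice 1.1, 1.2 and 1.4 and at 0 in mice 3.2, 3.3 and 3.5. *Ighj3* was at 7.07, 2.51 and 6.46 RPKM in the same *Hoxa9*/MTV mice and at 0 in the *Hoxa9*/*IRX3* mice. These RPKM rest on few reads, since 1 read on *Ighj3* is worth between 2.13 and 2.61 RPKM. *Ighj2* had 10, 2 and 2 reads and *Ighj3* had 3, 1 and 3. Against a floor of 3 reads over the *Hoxa9*/*IRX3* cohort, *Ighj2* was at least 4.64-fold lower and *Ighj3* at least 2.32-fold lower. The bound for *Ighj2* rests on mouse 1.1 and is 1.98-fold without it. A single read also passes the expression filter on these short segments, and the log2 differences of -3.95 (SE 0.58) for *Ighj2* and -3.44 (SE 0.34) for *Ighj3* depend on the pseudocount.

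The other joining segments were described without a test, since they share transcripts with the chosen genes. *Ighj1* had 3, 2 and 5 reads in mice 1.1, 1.2 and 1.4 and 0, 1 and 0 in mice 3.2, 3.3 and 3.5. *Ighj4* had 5, 0 and 2 reads in *Hoxa9*/MTV and 0 in each *Hoxa9*/*IRX3* mouse. Together the 4 segments held 38 reads in *Hoxa9*/MTV and 1 read in *Hoxa9*/*IRX3* leukemias, with *Ighm* at 4034 and 347.

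Variable segments of the heavy locus were nearly without reads. Of 104 variable segments, 16 had a read in any library, and their summed reads, rounded where a segment's length differs from the annotation, were 18, 1 and 12 in mice 1.1, 1.2 and 1.4 and 2, 1 and 4 in mice 3.2, 3.3 and 3.5. Near-identical variable segments lose reads to the alignment quality filter, so their reads are uncertain. Of 18 diversity segments, 2 had a read, both in mouse 1.1. Mouse 1.2 had 1 read on variable segments beside 1044 reads on *Ighm*.

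Other constant regions did not follow *Ighm* from mouse to mouse. *Igha*, the constant region of IgA, had 210, 0 and 302 reads in mice 1.1, 1.2 and 1.4 and 7, 0 and 0 in mice 3.2, 3.3 and 3.5. *Ighg2b* had 71 reads in mouse 1.2 and 0 in every other library. *Igkc*, the kappa light chain constant region, was at 24.5, 6.34 and 23.0 RPKM in mice 1.1, 1.2 and 1.4 and at 16.8, 0 and 0 RPKM in mice 3.2, 3.3 and 3.5. Its log2 difference was -3.29 (SE 1.41, limma adjusted p = 0.216), and the cohorts overlapped. Without mouse 3.2 it was -4.99 (limma adjusted p = 0.0148). The joining segment gene *Igkj2* had a read in mouse 1.1 and *Igkj1* had 0 reads. Of the 2 light chain genes tested, 0 were called by limma, 0 had an unadjusted p under 0.05 and voom on reads called 0 of 1.

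**Figure D1:**
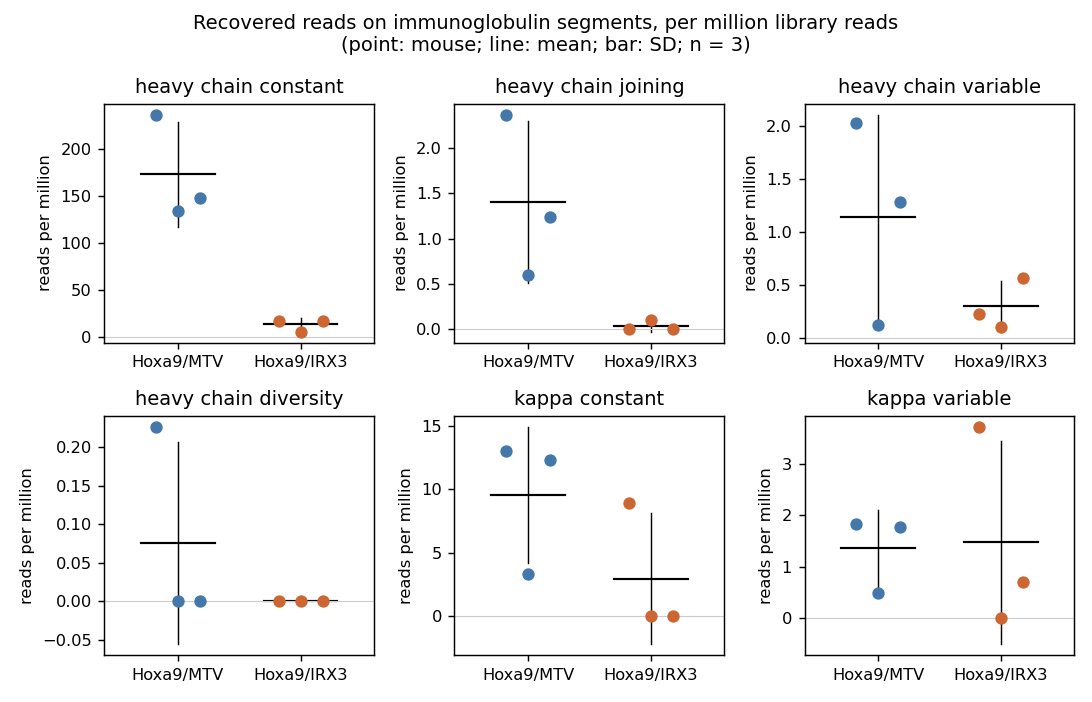
Recovered reads scaled to library reads (y axis, RPM) summed over each class of immunoglobulin segment, by cohort (x axis). Points are mice, lines are means and bars are SD of 3 mice. Heavy chain constant reads lay between 134 and 236 RPM in *Hoxa9*/MTV and between 6.02 and 17.7 in *Hoxa9*/*IRX3* mice, while kappa constant reads overlapped.

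T cell receptor constant regions were at or near 0. Of 6 in the table, 4 had no read in any library, among them *Trbc1*. *Tcrg-C2* was at 0.0454 RPKM in mouse 1.1 only. *Tcrg-C1* was at 0.697 RPKM in mouse 3.5 and at 0 in the others (limma adjusted p = 0.511). For this list limma called 0 of 1 tested gene, 0 had an unadjusted p under 0.05 and voom called 0 of 1. Variable segments of these loci, outside the list, did hold reads. Those of TCR beta summed to 70, 57 and 117 reads in mice 1.1, 1.2 and 1.4 and to 42, 16 and 20 in mice 3.2, 3.3 and 3.5. Those of TCR alpha/delta summed to 3, 1 and 1 against 2, 0 and 33 reads.

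*Cd79b* (chr11:106311341-106314762, minus strand), a signaling chain of the B cell receptor, was at 6.11, 7.07 and 7.01 RPKM in mice 1.1, 1.2 and 1.4. It was at 0.33, 0.149 and 2.31 RPKM in mice 3.2, 3.3 and 3.5. The cohorts did not overlap, and the *Hoxa9*/MTV mice were close to each other (mean 6.73 ± 0.536 RPKM against 0.929 ± 1.20 RPKM, SD, n = 3 each). Its reads were 185, 201 and 232 against 10, 5 and 63, which makes the summed reads 7.87-fold lower in *Hoxa9*/*IRX3* (95% exact interval 6.21 to 10.1). Mouse 3.5 carried most of the remaining reads, and without it the fold was 28.7. The log2 difference was -2.65 (SE 0.52).

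*Cd79a* (chr7:24897381-24902197, plus strand), the partner chain, was close to the limit of detection. It was at 0.141, 0.0250 and 0.107 RPKM in mice 1.1, 1.2 and 1.4 and at 0.258, 0.127 and 0 RPKM in mice 3.2, 3.3 and 3.5. The cohorts overlapped, with 12 reads in *Hoxa9*/MTV and 17 in *Hoxa9*/*IRX3*, a ratio of 1.43 (95% exact interval 0.642 to 3.27). Without mouse 3.2 the ratio was 0.754. The 2 chains thus differed in level. On exon length, where levels of different genes can be compared, *Cd79b* was at 14.6, 16.9 and 16.8 RPKM and *Cd79a* at 0.466, 0.0826 and 0.355 RPKM in mice 1.1, 1.2 and 1.4.

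*Igll1* (chr16:16860671-16863985, minus strand), which encodes the lambda 5 part of the surrogate light chain, differed in the opposite direction. It was at 0.102, 0.0726 and 0.0312 RPKM in mice 1.1, 1.2 and 1.4 and at 1.19, 9.11 and 38.4 RPKM in mice 3.2, 3.3 and 3.5. The cohorts did not overlap, but the *Hoxa9*/*IRX3* mice spread widely (mean 16.2 ± 19.6 RPKM against 0.0687 ± 0.0357 RPKM, SD, n = 3 each). The reads were 3, 2 and 1 against 35, 296 and 1015, a ratio of 226 with a 95% exact interval from 103 to 616. Mouse 3.5 held most of these reads, and the ratio without it was 79.3. The log2 difference was 3.92 (SE 1.02), which limma did not call with all 6 mice but called at 5.09 without mouse 3.2 and at 5.54 with a pseudocount of 0.1 RPKM.

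*Vpreb1* (chr16:16868403-16870843, minus strand), the other part of the surrogate light chain, was at 0.0926, 0.0493 and 0.169 RPKM in mice 1.1, 1.2 and 1.4. It was at 0.231, 0.376 and 2.72 RPKM in mice 3.2, 3.3 and 3.5. The cohorts did not overlap and the order of the *Hoxa9*/*IRX3* mice was that of *Igll1*. Its reads were 2, 1 and 4 against 5, 9 and 53, a ratio of 9.64 (95% exact interval 4.43 to 24.9), and 2.87 without mouse 3.5. The log2 difference was 1.08 (SE 0.54), which limma did not call. On exon length, mouse 3.5 had *Igll1* at 58.8 RPKM, *Cd79b* at 5.52, *Vpreb1* at 5.54 and *Ighm* at 9.37 RPKM, with *Pax5*, *Ebf1* and *Cd79a* at 0.

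*Ebf1* (chr11:44617317-45008091, plus strand) had 3, 0 and 1 reads in mice 1.1, 1.2 and 1.4 and 0 in each *Hoxa9*/*IRX3* mouse. *Pax5* (chr4:44524757-44710487, minus strand) had 0 reads in all 6 mice. Both spans are long, so 1 read is worth little RPKM there, and the absence of reads means that RNA of these genes was not detectable at this depth.

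**Figure D2:**
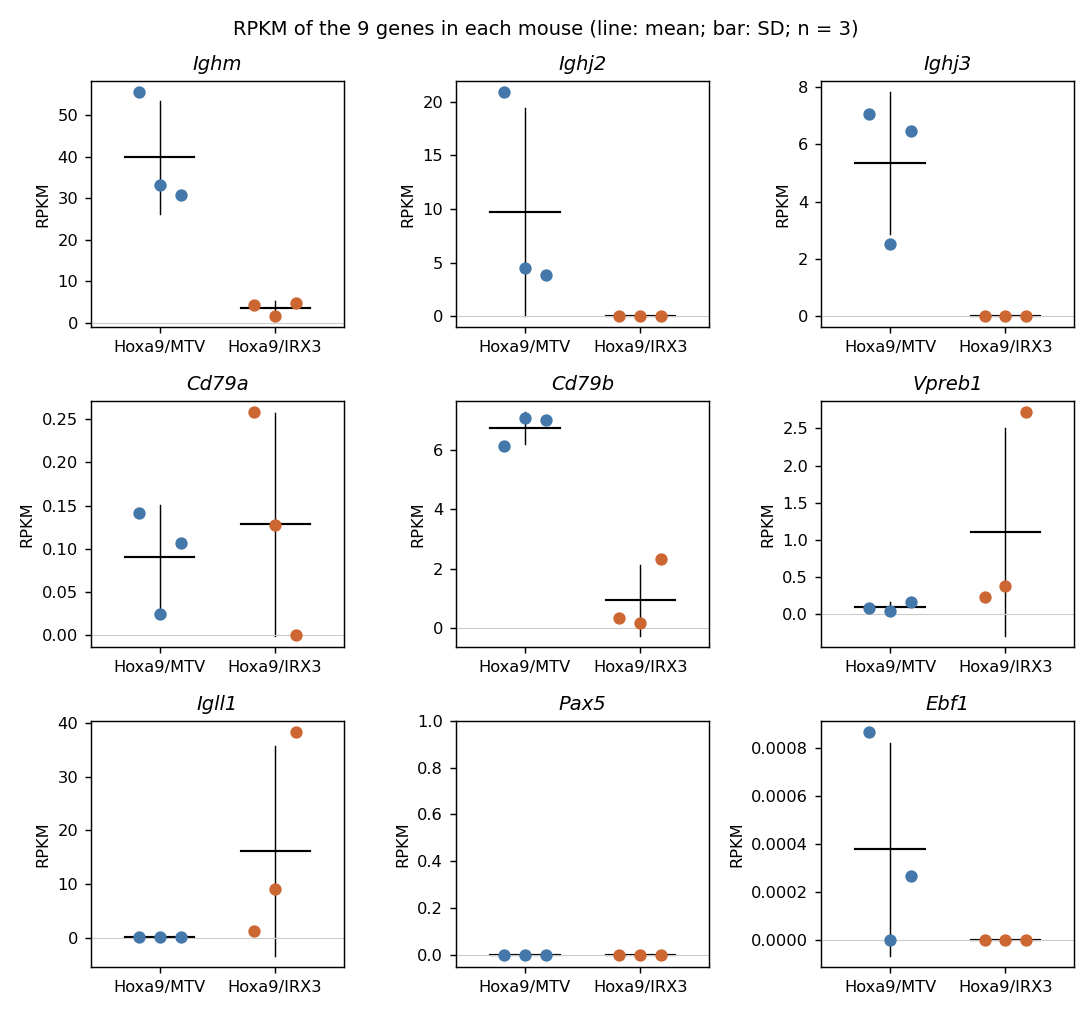
RPKM (y axis, linear, its own scale in each panel) of the 9 genes by cohort (x axis). Points are mice, lines are means and bars are SD of 3 mice. *Ighm*, *Ighj2*, *Ighj3* and *Cd79b* were lower in all *Hoxa9*/*IRX3* mice, *Igll1* and *Vpreb1* were higher in all of them, *Cd79a* overlapped, and *Ebf1* and *Pax5* were at or near 0.

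Of the 9 genes, 6 passed the filter of more than 0.5 RPKM in at least 1 mouse, and *Cd79a*, *Pax5* and *Ebf1* did not. Limma called 4 of the 6 lower (*Ighm*, *Ighj2*, *Ighj3* and *Cd79b*) and 0 higher, where 2.07% of the 9551 tested genes were called lower and 1.09% higher. A gene was called where the adjusted p lay below 0.05 and the log2(RPKM + 0.5) values differed 2-fold or more. All 6 had cohorts that did not overlap, as did 33.7% of all tested genes. Because the genes were chosen on this contrast, nothing is read from these counts. On recovered reads voom tested a different 6 of the 9, with *Cd79a* and without *Ighj3*, whose 7 reads fell below the minimum of 10. It called 2, *Ighm* and *Cd79b*, where it called 4.1% of 12756 genes in either direction. Without mouse 1.1 limma called *Ighj2* and *Ighj3*, and without mouse 1.2 or mouse 1.4 it called *Ighj3*. *Cd79b* was called in 1 of 6 fits without a mouse, that without mouse 3.5.

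*Igll1* and *Vpreb1* are neighbours on chromosome 16, with 4417 bases between their annotated spans. Limma called neither of the 2 other genes tested within 100 kb. *Top3b*, a topoisomerase gene on the opposite strand whose span overlaps that of *Vpreb1* by 108 bases, had a log2 difference of 0.02 (SE 0.20, limma adjusted p = 0.964). *Ppm1f* was at 0.18 (SE 0.20, limma adjusted p = 0.595). *Top3b* was at 3.54 to 6.06 RPKM, and since the counting is not stated to use strand, reads of *Top3b* in the overlap cannot be told from reads of *Vpreb1*. Mouse 3.5, with the most *Vpreb1*, had the lowest *Top3b*.

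The starts of *Igll1* and *Vpreb1* are shown for their shared difference in direction. RefSeq promoters on GRCm38.p6, 250 bases before to 50 after the start, were searched on both strands for CCCNNGGG, the core recognized by EBF1, and for the E-box CANNTG, both of which read alike on both strands and do not overlap here. *Igll1* lies at chr16:16863936-16864235 and *Vpreb1* at chr16:16869206-16869505, both on the minus strand. The *Igll1* window crosses the upstream edge of its annotated span at 16863985. The *Vpreb1* window lies inside the annotated span of that gene, whose upstream edge is at 16870843. The 2 windows are thus not at like positions of the annotated genes. Capitals mark the matches.
*Igll1*: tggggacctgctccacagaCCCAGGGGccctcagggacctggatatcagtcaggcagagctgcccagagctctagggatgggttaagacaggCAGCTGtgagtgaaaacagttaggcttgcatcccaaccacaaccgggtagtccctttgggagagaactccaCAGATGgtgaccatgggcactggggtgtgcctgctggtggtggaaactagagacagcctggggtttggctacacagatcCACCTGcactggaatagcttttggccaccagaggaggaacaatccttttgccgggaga
*Vpreb1*: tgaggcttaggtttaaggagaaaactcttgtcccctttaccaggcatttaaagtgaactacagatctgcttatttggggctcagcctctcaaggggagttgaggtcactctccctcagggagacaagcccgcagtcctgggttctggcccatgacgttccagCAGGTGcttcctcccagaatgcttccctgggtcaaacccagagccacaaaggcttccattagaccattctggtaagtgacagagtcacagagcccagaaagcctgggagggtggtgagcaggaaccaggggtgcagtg
The *Igll1* window held 1 CCCNNGGG and 3 CANNTG, and the *Vpreb1* window held 0 and 1. Of 32851 promoters of the same length, 13.7% held CCCNNGGG and 72.3% held CANNTG. These are matches of letters and no binding was measured.

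Around *Cd79b*, 12 other genes within 200 kb were tested. *Limd2* was the 1 that limma called, at 52.7, 55.5 and 61.5 RPKM in mice 1.1, 1.2 and 1.4 and 19.9, 15.1 and 28.5 RPKM in mice 3.2, 3.3 and 3.5 (log2 difference -1.44, SE 0.24, adjusted p = 0.0271). It lies 150.5 kb away, was singled out after its values were seen, and was not called without mouse 1.1, 1.2 or 1.4. The others had adjusted p from 0.0561 to 0.918.

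**Figure D3:**
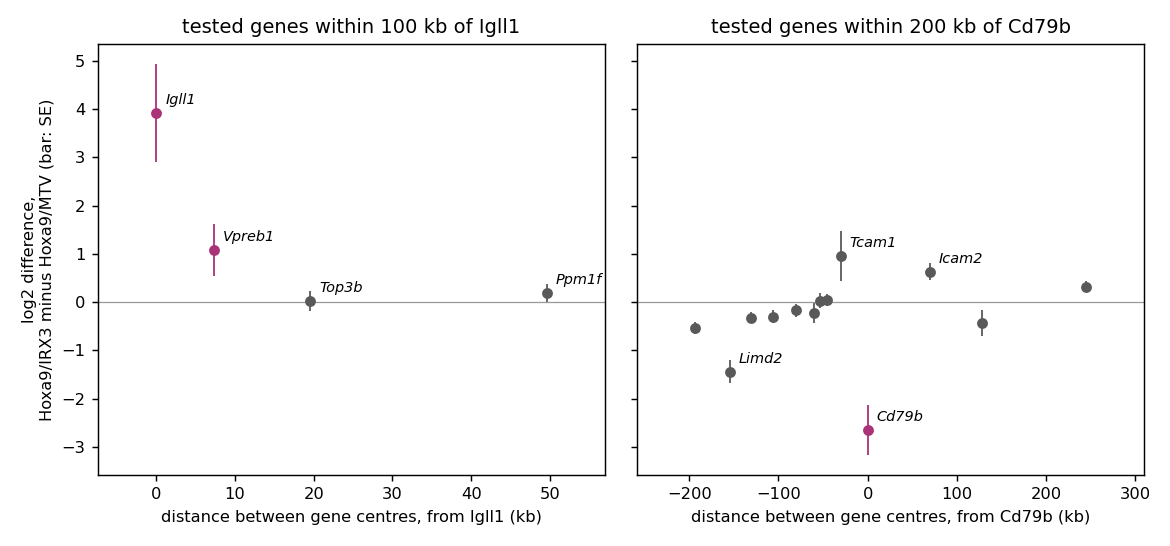
Log2 difference of *Hoxa9*/*IRX3* minus *Hoxa9*/MTV (y axis, bars SE) of tested genes against the distance between gene centres in kb (x axis), around *Igll1* (left) and *Cd79b* (right). The 9 chosen genes are purple and other genes gray. *Top3b* and *Ppm1f* lay at 0.02 and 0.18, beside 3.92 for *Igll1* and 1.08 for *Vpreb1*.

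Further B-lineage genes were taken from 6 lists of 63 genes outside the 9, all in the table. Of these 29 were tested, 1 was called higher and 1 lower, and their median log2 difference was -0.26 where that of all tested genes was -0.06. The called genes were *Bcl11a* and *Flt3*, which both act in early lymphoid progenitors and are also expressed outside the B lineage. *Bcl11a*, a transcription factor gene, was at 0.109, 0.0363 and 0.0291 RPKM in mice 1.1, 1.2 and 1.4 and at 1.27, 1.12 and 0.652 RPKM in mice 3.2, 3.3 and 3.5 (log2 difference 1.42, SE 0.20, limma adjusted p = 0.0158). *Flt3*, a cytokine receptor gene, was at 0.999, 0.604 and 0.883 RPKM against 0.00162, 0.0249 and 0.0252 RPKM (log2 difference -1.35, SE 0.16, limma adjusted p = 0.0106). *Bcl11a* was not called without mouse 1.1, 1.2 or 1.4 (limma adjusted p = 0.0649, 0.0857 and 0.086), and *Flt3* was not called without mouse 1.1 or 1.4 (limma adjusted p = 0.0689 and 0.0834).

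Among 16 transcription factors, 9 were tested, 2 had an unadjusted p under 0.05 and voom called 2 of 14. Besides *Bcl11a*, those with the highest mean RPKM over the whole gene span, which is not a ranking on exon length, were *Sox4*, *Myb* and *Spi1*. *Sox4* was at 24.9 to 48.2 RPKM in *Hoxa9*/MTV mice and 4.08 to 37.5 RPKM in *Hoxa9*/*IRX3* mice (log2 difference -1.12, limma adjusted p = 0.42). *Myb* (log2 difference -0.10, limma adjusted p = 0.749) and *Spi1*, which encodes PU.1 (log2 difference -0.57, limma adjusted p = 0.345), also had overlapping cohorts. *Ikzf1*, the lymphoid and hematopoietic factor Ikaros, did not overlap, at 6.98, 7.28 and 7.47 RPKM in mice 1.1, 1.2 and 1.4 against 3.97, 4.28 and 5.49 RPKM (log2 difference -0.62, limma adjusted p = 0.0626). *Ikzf3*, the lymphoid factor Aiolos, lay below the filter on its long span, with 71, 49 and 106 reads against 3, 0 and 8, and voom called it lower (adjusted p = 0.0427). Both were singled out after their values were seen.

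The V(D)J recombination list had 3 of 9 genes tested, the general repair and chromatin genes *Hmgb1* (log2 difference -0.35, limma adjusted p = 0.384), *Dclre1c* (0.11, adjusted p = 0.684) and *Lig4* (0.45, adjusted p = 0.184). Limma called 0 of them, 1 had an unadjusted p under 0.05 and voom called 0 of 6. The lymphoid members *Rag1*, *Rag2* and *Dntt* had at most 3, 3 and 6 reads in a library, and these were in *Hoxa9*/MTV mice only. The surrogate light chain relatives were not tested. *Vpreb2* had 0 reads and *Vpreb3* was at 0, 0 and 0.0626 RPKM in mice 1.1, 1.2 and 1.4 and at 0.0342, 0.278 and 0.0380 RPKM in mice 3.2, 3.3 and 3.5. Limma had 0 calls here, 0 genes had an unadjusted p under 0.05, and voom called 0 of 1.

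In the list of B cell receptor signaling, 10 of 14 genes were tested and limma called 0, with 3 at an unadjusted p under 0.05 and voom calling 0 of 11. These kinases and adaptors also act in myeloid cells. *Syk* had a log2 difference of -0.17 (limma adjusted p = 0.48), *Ptpn6* of -0.10 (adjusted p = 0.878) and *Pik3cd* of -0.63 (adjusted p = 0.0546). *Pik3cd* was at 5.79 to 7.36 RPKM in *Hoxa9*/MTV and 3.56 to 4.43 RPKM in *Hoxa9*/*IRX3* mice, without overlap. *Bank1*, of the same list, lay below the filter on its long span and differed in the opposite direction. It had 14, 8 and 4 reads in mice 1.1, 1.2 and 1.4 against 51, 61 and 22 in mice 3.2, 3.3 and 3.5. Voom did not call it (adjusted p = 0.0924), and it was described after its values were seen.

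Of 15 B surface genes 4 were tested, and besides *Flt3* none was called by limma. *Cd93* was at 227 to 296 RPKM against 59.8 to 204 RPKM (log2 difference -1.34, adjusted p = 0.123). Without mouse 3.2 its difference was -1.83 and limma called it (adjusted p = 0.0176). *Cd37* had a log2 difference of -0.59 (adjusted p = 0.0864). *Cd24a*, widely expressed on immature blood cells, reached 14.3 to 44.3 RPKM in *Hoxa9*/MTV mice, against 72.5, 24.5 and 223 RPKM in mice 3.2, 3.3 and 3.5 (log2 difference 1.36, adjusted p = 0.348), and so was highest in the mouse with the most *Igll1*.

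Plasma cell genes, which mark antibody-secreting cells, were given beside the heavy locus, since such cells hold much immunoglobulin RNA. Limma called 0 of 3 tested, 2 had an unadjusted p under 0.05 and voom called 1 of 5, *Xbp1*. *Xbp1*, a regulator of secretory cells, was at 69.8, 58.5 and 83.5 RPKM in mice 1.1, 1.2 and 1.4 and at 218, 114 and 172 RPKM in mice 3.2, 3.3 and 3.5 (log2 difference 1.21, limma adjusted p = 0.0537; voom adjusted p = 0.0459). *Mzb1*, which serves antibody secretion and is also expressed in plasmacytoid dendritic cells, was at 4.57, 3.32 and 0.541 RPKM against 0, 0.0485 and 0 RPKM (log2 difference -2.40, limma adjusted p = 0.0624). Without mouse 3.3 *Xbp1* was called (limma adjusted p = 0.0226), and without mouse 1.4 so was *Mzb1* (limma adjusted p = 0.012). *Derl3* had a log2 difference of 0.27 (adjusted p = 0.62). *Jchain*, which joins secreted IgA and IgM, had 18, 1 and 19 reads against 1, 0 and 0, and was described after its values were seen. Within the *Hoxa9*/MTV cohort *Jchain*, *Igha*, *Igkc* and the variable and joining segments were each lowest in mouse 1.2. *Ighg2b* had reads in mouse 1.2 only. *Ighm* was close in mice 1.2 and 1.4 (33.2 and 30.9 RPKM), and *Mzb1* was lowest in mouse 1.4. The part of plasma cells in the *Ighm* values was not tested.

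**Figure D4:**
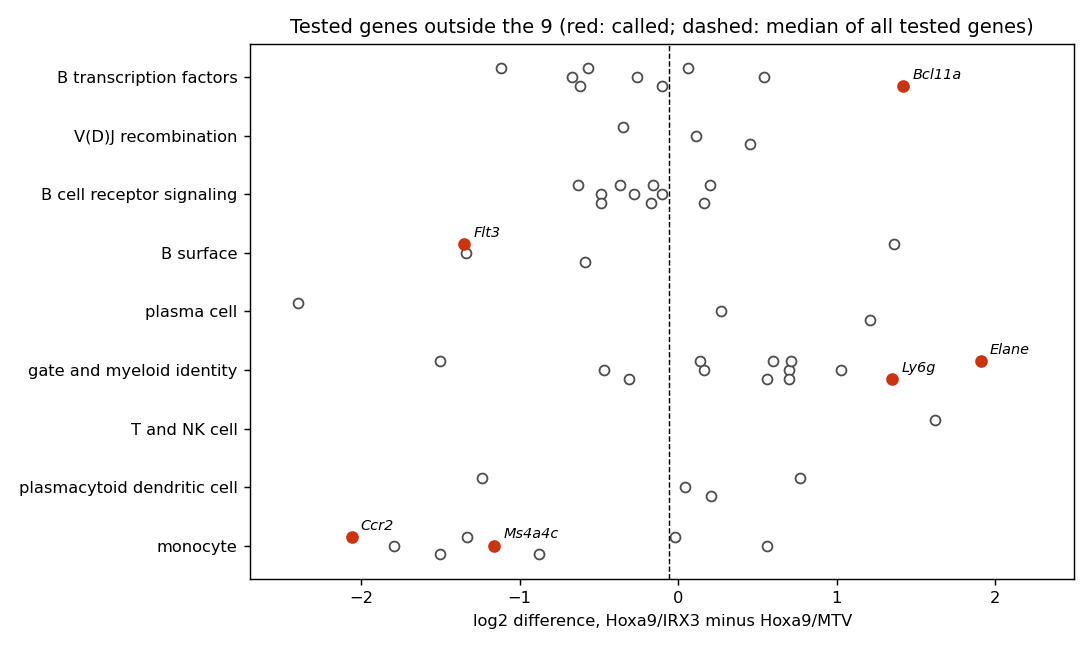
Log2 difference of *Hoxa9*/*IRX3* minus *Hoxa9*/MTV (x axis) of each tested gene outside the 9, by list (y axis). Red points were called by limma, open points were not, and the dashed line is the median of all tested genes at -0.06. *Bcl11a* and *Flt3* were the called genes in the B-lineage lists.

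Markers of other cells that a KIT+Gr1+ gate could hold were set beside these genes. Of 43 genes for T and NK cells, plasmacytoid dendritic cells, monocytes and erythroid cells, 13 were tested, 0 were called higher and 2 lower, with a median log2 difference of -0.88. Both were monocyte genes. *Ccr2*, a chemokine receptor gene, was at 22.3, 18.7 and 26.3 RPKM in mice 1.1, 1.2 and 1.4 and at 4.99, 3.69 and 6.48 RPKM in mice 3.2, 3.3 and 3.5 (log2 difference -2.06, SE 0.23, limma adjusted p = 0.00855), and was not called without mouse 1.1 or 1.4 (adjusted p = 0.0519 each). *Ms4a4c* was at 0.80, 0.343 and 0.911 RPKM against 0, 0 and 0.0558 RPKM (log2 difference -1.16, SE 0.23, limma adjusted p = 0.0387), and it was called in 0 of 6 fits without a mouse. *Ly6c2* (log2 difference 0.56, adjusted p = 0.279), *Cd14* (-0.02, adjusted p = 0.991) and *Irf8* (-1.79, adjusted p = 0.368) were not called. *Irf8* stood at 63.1 RPKM in mouse 3.3 and at 2.61 and 2.98 RPKM in mice 3.2 and 3.5, and without mouse 3.3 it was called at -3.22 (adjusted p = 0.00464). Scaled to library reads (RPM), the 10 monocyte genes summed to 4660 to 5200 in *Hoxa9*/MTV and 2790 to 6630 in *Hoxa9*/*IRX3* mice.

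Of 10 plasmacytoid dendritic cell genes 4 were tested, limma called 0, 1 had an unadjusted p under 0.05, and voom called 1 of 7, *Siglech*. *Siglech*, a surface lectin gene of these cells, had 26, 15 and 12 reads in mice 1.1, 1.2 and 1.4 and 0, 0 and 1 in mice 3.2, 3.3 and 3.5 (voom adjusted p = 0.0448), and was singled out after its values were seen. *Cox6a2* was at 0.364, 0.388 and 1.67 RPKM against 0 in each *Hoxa9*/*IRX3* mouse (limma adjusted p = 0.103). *Bst2* (log2 difference 0.21, adjusted p = 0.608) and *Irf7* (0.77, adjusted p = 0.56) had overlapping cohorts. The summed reads of this list were 227 to 274 RPM in *Hoxa9*/MTV and 136 to 378 RPM in *Hoxa9*/*IRX3* mice. *Tcf4* and *Runx2*, on long spans, made up most of this sum in each library, with 937 and 922 of 2156 reads in mouse 1.1. The sum thus says little about *Siglech* and *Cox6a2*. The part of this list in the heavy locus values was not tested.

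Of 14 T and NK cell genes 1 was tested, *Nkg7*, which limma did not call. It was at 482 RPKM in mouse 3.5, 100 RPKM in mouse 3.2 and 14.9 RPKM in mouse 3.3, with 22.6 to 32.9 RPKM in *Hoxa9*/MTV leukemias (log2 difference 1.62, adjusted p = 0.416). Limma called 0, 0 had an unadjusted p under 0.05, and voom called 0 of 3. *Cd3d* and *Ncr1*, defining genes of T and NK cells, had 0 reads in every library, and *Lck* and *Tcf7* were at most at 0.0777 RPKM. No erythroid gene was tested, with 0 at an unadjusted p under 0.05 and voom calling 0 of 1. The 9 erythroid genes summed to 0.103 to 1.02 RPM per library. *Klf1* was highest at 0.0307 to 0.303 RPKM, *Hbb-bs* had reads in mouse 1.1 only, and *Epor* likewise.

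Of 14 genes of the gate and of myeloid identity 13 were tested and limma called 2, both higher. An unadjusted p under 0.05 was found for 6, and voom called 2 of 14. *Elane*, neutrophil elastase, was at 715, 1050 and 614 RPKM in mice 1.1, 1.2 and 1.4 and at 3320, 3330 and 2240 RPKM in mice 3.2, 3.3 and 3.5 (log2 difference 1.91, SE 0.26, limma adjusted p = 0.0145). *Ly6g*, the Ly6G part of the Gr1 epitope, was at 0.145, 0.124 and 0.0532 RPKM against 1.42, 0.682 and 1.13 RPKM (log2 difference 1.35, SE 0.20, limma adjusted p = 0.0209). Its reads were few, with 5, 4 and 2 against 49, 26 and 35. Without mouse 1.1 or 1.4 limma called neither, with adjusted p = 0.0714 and 0.0734 for *Elane* and 0.0832 and 0.103 for *Ly6g*, which was also not called without mouse 1.2 (adjusted p = 0.0965). *Mpo* (0.70, adjusted p = 0.114), *Ctsg* (1.03, adjusted p = 0.0745) and *Prtn3* (0.71, adjusted p = 0.124) were not called. They too were higher in every *Hoxa9*/*IRX3* mouse than in any *Hoxa9*/MTV mouse. Cohorts thus did not overlap for 5 of the 13 tested genes, where 33.7% of all tested genes did not. *Ly6c2*, a Ly6C gene that is also in this list, was far above *Ly6g*. It was at 413, 479 and 440 RPKM in mice 1.1, 1.2 and 1.4 and at 414, 790 and 844 RPKM in mice 3.2, 3.3 and 3.5, with overlapping cohorts. Reads of this list summed to 11900 to 16000 RPM in *Hoxa9*/MTV and 24100 to 25900 in *Hoxa9*/*IRX3* mice, with *Mpo* and *Elane* making up much of the sum. The other tested genes of the list, such as *Kit* (log2 difference -0.31) and *Itgam* (-0.47), had overlapping cohorts. The part of these genes in the *Ighm* difference was not tested.

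The genes whose pattern over the 6 mice was most like that of *Ighm* were sought among 6973 tested genes outside the heavy locus with a mean of at least 1 RPKM. Pearson's r on log2(RPKM + 0.5) was 0.993 for *Ccdc50*, 0.992 for *Akna*, 0.992 for *Sfxn3* and 0.987 for *Atp6ap1*. These values describe 6 libraries in 2 cohorts, so any gene lower in *Hoxa9*/*IRX3* mice with little spread has a high r. *Ccdc50* was at 5.02, 4.83 and 4.56 RPKM in mice 1.1, 1.2 and 1.4 and at 3.11, 2.35 and 3.16 RPKM in mice 3.2, 3.3 and 3.5. Its range was far narrower than that of *Ighm*.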

How the data were processed

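RNA of KIT+Gr1+ leukemia cells sorted from 6 mice was measured, 3 per cohort, with cohorts taken from the sample labels. The authors made strand-specific polyA libraries, sequenced paired ends of 75 bases, aligned them to GRCm38 with Bowtie2 2.2.1, removed reads that were unaligned, not primary or of low quality in SAMtools 0.1.19, assigned reads to Ensembl v76 genes and deposited RPKM, which divide by the whole gene span. Where cDNA reads cross splice junctions, end-to-end alignment loses them, and short exons lose more.

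Positions, types and lengths came from GENCODE M21, which held 40254 of the 41128 genes. Read numbers were recovered from the steps between low RPKM values. In each library between 72.7% and 73.1% of the detected genes gave whole reads within 0.01, and the rest are approximate. The M21 span did not give whole reads for *Ighm* and *Ighj2*, whose length was searched for (tolerance 0.02). A ratio of summed reads has a Clopper-Pearson interval for counting error.

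Protein-coding genes and antigen receptor segments over 0.5 RPKM in at least 1 mouse (9551) were tested in limma 3.58.1 (R 4.3.3), by lmFit on log2(RPKM + 0.5) and then eBayes with its variance trend. P-values were adjusted over all of them after Benjamini and Hochberg. Voom was run on recovered reads as an alternative. On simulated data with 200 of 9551 genes changed the fit was tested for recovery. Each mouse is 1 animal and 1 library, and the numbers of the mice pair no libraries. Python 3.11.15, scipy 1.17.1 and matplotlib 3.10.9 did the rest. Alternatives were other pseudocounts (0.1 and 1 RPKM), filters, gene types, lengths, scalings and tests, and leaving out each mouse.

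The 9 genes and the lists were chosen with earlier results of these data known. The genes named besides the 9 were, in each list, those called and the 3 with the highest mean RPKM (whole span), the 5 most like *Ighm*, *Hoxa9* and *Irx3*. Cell type markers and neighbouring genes were added. A few of them are left out here. Genes of the lists that the table does not hold, such as *Ighd*, *Iglc1* and *Trdc*, were not analysed here, and no value column was left unused.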

Additional observations from a re-analysis of the deposited data

How the results depend on the processing

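With 3 mice per cohort, limma called 302 of 9551 genes, and this count was 178 with no filter, 558 with exon length in place of the gene span, 523 with voom on recovered reads and 668 under the paper's criterion. The last count is over the same 9551 genes, which include antigen receptor segments. The paper used protein-coding genes only, so this is not its published count. Leaving out each mouse gave 59 to 421 genes, with 78, 71 and 59 without mice 1.1, 1.2 and 1.4. Of the 9 genes 4 were called, 2 with a minimum of 10 recovered reads (*Ighj2* and *Ighm*), 2 with voom (*Cd79b* and *Ighm*), and 1 to 4 when a mouse was left out. The minimum of 10 reads, which voom also used, left *Ighj3* untested and took in *Cd79a*. At a pseudocount of 0.1 RPKM and without mouse 3.2 the 4 were *Ighj2*, *Ighj3* and *Ighm*, lower, and *Igll1*, higher. *Cd79b* was not called there, nor with median-of-ratios scaling, quantile normalization, no filter, a minimum of 10 reads or all gene types. Of the B-lineage genes outside the 9, 2 were called, 0 at a pseudocount of 1 RPKM, 5 with exon length, 4 with voom, 4 under the paper's criterion, and 0 to 3 without a mouse. Of the markers of other cell types 2 were called, 1 at a pseudocount of 1 RPKM, 1 with no filter, 1 with all gene types, and 0 to 4 without a mouse. No paired analysis was possible because the mouse numbers name animals and do not match between the cohorts. The cause of these shifts was not tested.

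Of 93 log2 differences of the 6 tested genes under the alternatives, 9 moved by more than 1 SD. Among other named genes the sign changed where no call was made, for *Ptpn6* at 0.01 under the paper's criterion and for *Cd14* at 0.02 with a pseudocount of 1 RPKM, 0.06 after median-of-ratios scaling, 0.02 after quantile normalization and 0.79 under the paper's criterion. Leaving out each mouse gave -0.23 to 0.03 for *Myb*, -0.47 to 0.20 for *Ptpn6*, -0.03 to 0.34 for *Bst2* and -1.08 to 0.98 for *Cd14*. *Xbp1* was called after median-of-ratios scaling (limma adjusted p = 0.0475), quantile normalization (0.0365) and with exon length (0.0447). *Mzb1* (0.0307) and *Cox6a2* (0.0481) were called at a pseudocount of 0.1 RPKM. Depth limits *Ighj2*, *Ighj3*, *Cd79a* and *Ebf1*, which rest on 4 to 29 reads in all.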
